A study of Danio rerio with 24 samples.

Results

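Keratin and desmosome genes were followed through early zebrafish development, with and without the flame retardant TDCIPP. The genes were picked by symbol from the array annotation. They comprised the numbered keratin genes, the cytokeratin gene cyt1l, and the genes for desmocollin, desmoglein, plakoglobin, plakophilin, desmoplakin, envoplakin and periplakin. The rule found 41 transcript clusters (the measured unit of this array) of 36 genes, out of 19298 genes that carried a single symbol. Where a gene had several clusters, the one with the highest mean signal was used. The 36 genes were 16 type I keratins, 3 type II keratins, 3 keratin genes to which no type was assigned here, 3 desmosomal cadherins, 8 armadillo proteins and 3 plakins. All 36 were found in the current RefSeq gene list under the same symbol.

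Wildtype embryos were kept in vehicle (0.1% DMSO) or in 2 µM TDCIPP, or tris(1,3-dichloro-2-propyl) phosphate, from 0.75 h post-fertilization (hpf) onward. They were collected as whole embryos at 2 hpf, during cleavage, or at 6 hpf, when untreated embryos are in the early gastrula. Each of the 4 groups (DMSO 2 hpf, TDCIPP 2 hpf, DMSO 6 hpf and TDCIPP 6 hpf) had 3 pools of 25 embryos, and the RNA of each pool was hybridized to 2 arrays. The comparisons asked whether these genes changed between the time points, and whether TDCIPP altered their levels at either time.

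Keratins are the intermediate filament proteins of epithelia. A type I keratin pairs with a type II keratin, and the pairs assemble into filaments that give an epithelial sheet its strength. Desmosomes are the junctions that hold such filaments to the cell surface: desmocollins and desmogleins bridge the gap between cells, the armadillo proteins plakoglobin and plakophilin bind their tails, and desmoplakin ties the complex to keratin. In the zebrafish blastula, the surface cells form the enveloping layer, a thin epithelium which spreads over the yolk during epiboly and is known for its strong expression of keratin genes. Embryos at 2 hpf live on maternal RNA, as the zygotic genome is switched on later.

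Signals are log2 values, so a difference of 1 is a 2-fold change. They were normalized to a common distribution, so a change is relative to the other transcripts of the same embryos. The median signal of an array was between 4.32 and 4.46 at 2 hpf and between 4.47 and 4.54 at 6 hpf. Arrays of the same pool correlated at 0.990 to 0.993 at 2 hpf and at 0.985 to 0.988 at 6 hpf, which was close to the range between pools (0.985 to 0.993 and 0.983 to 0.987). Most stage markers followed the labels. Between 2 and 6 hpf in DMSO embryos, 8 of 13 measured maternal genes were called lower, 2 were called higher and 3 were not called. All 15 measured zygotic gastrula genes were called higher. Over all genes with 1 symbol, 33% were called lower and 16.1% higher. The maternal germ plasm gene buc stood at 8.47 in DMSO embryos at 2 hpf and 5.65 at 6 hpf, and the mesoderm gene tbxta stood at 4.99 and 10.51. Whole embryos were measured, so fewer cells of a type and less RNA per cell cannot be told apart. Differences were tested with limma, each pool counting once, and adjusted over 61240 transcript clusters. A call required an adjusted p under 0.1.

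**Figure D1:**
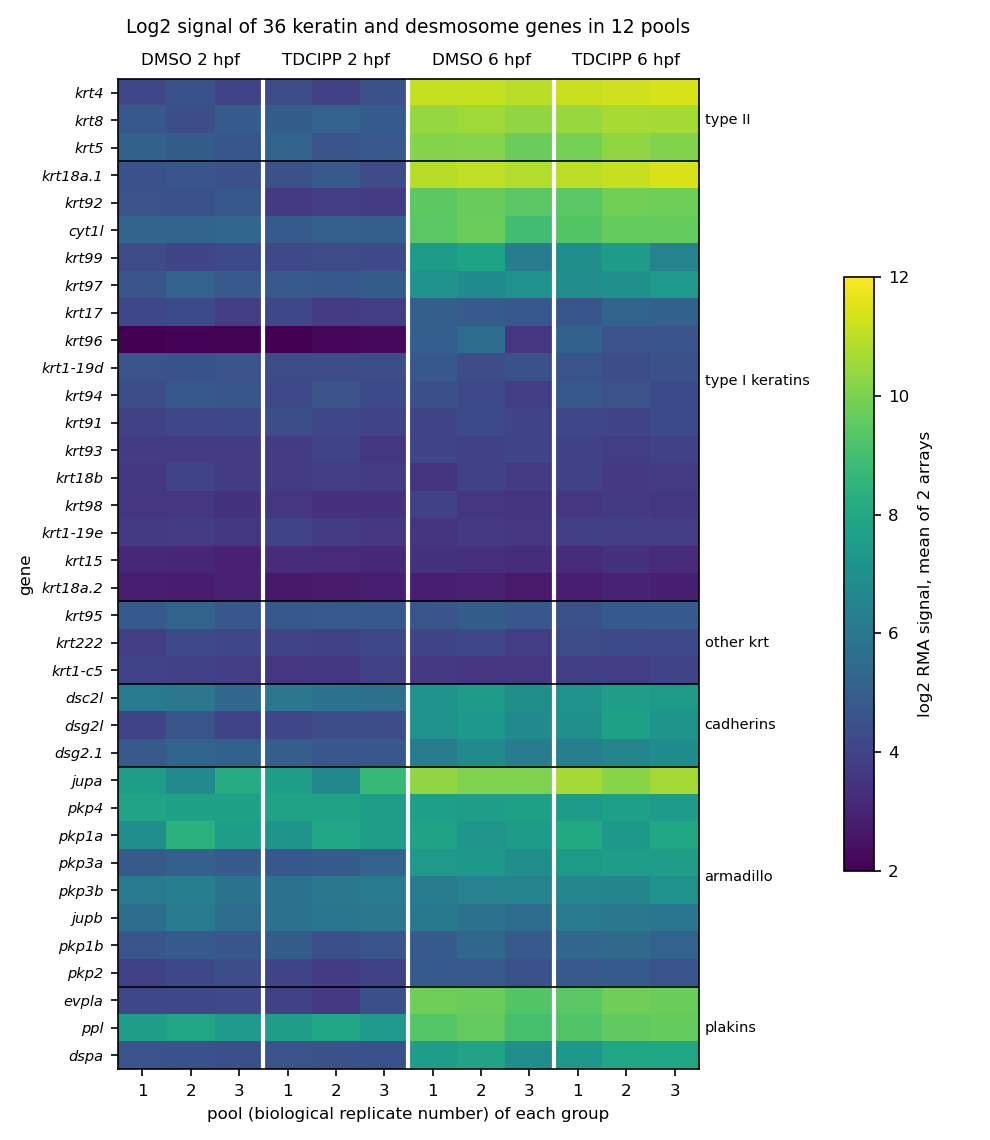
Log2 signal (colour, mean of the 2 arrays of a pool) of the 36 genes (rows, by role) in the 12 pools (columns, by group and pool number). At 6 hpf the type II keratins krt4, krt8 and krt5 and the type I keratin krt18a.1 were bright in all 6 pools, while most of the lower type I keratins stayed dark at both times.

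In DMSO embryos, 21 of the 36 keratin and desmosome genes rose from 2 to 6 hpf, 2 fell and 13 did not pass the test, with a median log2 difference of 0.69. Over all genes with 1 symbol, 49.1% passed the test, 16.1% as rising and 33% as falling, and the median was -0.09. All 3 type II keratins, all 3 desmosomal cadherins and all 3 plakins rose. So did 9 of the 16 type I keratins and 3 of the 8 armadillo genes. None of the 3 keratin genes of no assigned type rose, and 1 of them fell. Because the genes and comparisons were chosen with earlier results of these data known, the counts are set beside the share over all genes as a description.

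The type II keratin krt4 had a signal of 4.12, 4.51 and 4.02 in the DMSO pools at 2 hpf and 11.13, 11.12 and 10.96 at 6 hpf. All 3 pools at 2 hpf were close to the array medians, and the 6 hpf pools were far above them with a narrow spread. The log2 difference was 6.85 (standard error 0.15, adjusted p = 8.14e-13). Another gene of this type, krt8, encodes the usual partner of keratin 18 in simple epithelia. It had 4.76, 4.40 and 4.92 at 2 hpf and 10.42, 10.57 and 10.35 at 6 hpf, a difference of 5.75 (standard error 0.13, adjusted p = 1.28e-12). For krt5, known in mammals from basal cells of stratified epithelia, the pools stood at 5.10, 4.94 and 4.69 and then at 10.14, 10.18 and 9.72. This was a rise of 5.10 (standard error 0.17, adjusted p = 4.05e-11). In each of the 3 genes the pools of the 2 times were widely apart. The 2 hpf signal of krt4, krt8, krt5, krt18a.1, krt92 and evpla lay near or below the array medians and is not shown to be above background, so the size of these rises and their order among genes are not settled. The same limit holds for other genes that began near or below the medians. Among them were krt96, krt99, dsg2l and dspa, with DMSO means of 2.05, 4.20, 4.24 and 4.50 at 2 hpf.

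Type I keratins ranged from strong rises to almost no change. The one that rose most, krt18a.1, encodes a keratin 18. It was at 4.52, 4.65 and 4.46 at 2 hpf and at 10.91, 11.06 and 10.86 at 6 hpf in DMSO embryos. Its rise was 6.40 (standard error 0.14, adjusted p = 6.79e-13). The surface epithelium keratin krt92 went from a mean of 4.62 ± 0.13 to 9.53 ± 0.11 (SD, n = 3), and cyt1l from 5.25 ± 0.03 to 9.36 ± 0.38 (SD, n = 3), which are rises of 4.92 and 4.11. Rises of 2.95, 2.66 and 2.14 were seen for krt99, krt96 and krt97. The spread at 6 hpf was wide in 2 of these genes: krt99 had 7.43, 7.80 and 6.22 in the DMSO pools, and krt96 had 5.55 in pool 2, 3.59 in pool 3, and 5.68 and 4.32 on the arrays of pool 1. In both genes DMSO pool 3 was the low one, although every 6 hpf pool was still above every 2 hpf pool. The arrays of one pool also disagreed most for krt96, by 1.35 in DMSO pool 1 at 6 hpf and by 1.85 in TDCIPP pool 1 at 6 hpf. Its level at 6 hpf is therefore imprecise.

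Smaller rises were called for krt17 (0.82), krt15 (0.34) and krt93 (0.30). The signals of krt15 (3.03 at 2 hpf and 3.36 at 6 hpf) and krt93 (3.76 and 4.06) were below the median of every array at both times. The call for krt93 was lost without DMSO pool 3 at 2 hpf, and without DMSO pool 1 or pool 3 at 6 hpf. The type I keratins krt1-19d, krt1-19e, krt18a.2, krt18b, krt91 and krt98 did not pass, with log2 differences between -0.11 and 0.14. The signal of krt18a.2 was far below the array medians, at 2.86 ± 0.06 at 2 hpf and 2.82 ± 0.09 at 6 hpf (SD, n = 3), beside a difference of 6.40 for krt18a.1.

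The 2 falls were small. The type I keratin krt94 had 4.41, 4.75 and 4.69 at 2 hpf and 4.44, 4.19 and 3.80 at 6 hpf, so the times overlapped in 1 pool. Its difference was -0.47 (standard error 0.17, adjusted p = 0.0493). The keratin gene krt1-c5 had 3.99, 3.92 and 3.84 at 2 hpf and 3.68, 3.57 and 3.60 at 6 hpf. Its pool means did not overlap, and the difference was -0.30 (standard error 0.11, adjusted p = 0.047). Its single arrays overlapped, with 4.00 on array 2 of pool 1 at 6 hpf and 3.66 on array 1 of pool 3 at 2 hpf. Neither call held up against the choice of pools. For krt94, the adjusted p was 0.147 without DMSO pool 2 and 0.13 without pool 3 of 2 hpf, and 0.211 without pool 3 of 6 hpf. For krt1-c5, it was 0.144 without DMSO pool 1 of 2 hpf, and 0.122 and 0.101 without pool 2 and pool 3 of 6 hpf. The other genes of no assigned type, krt95 and krt222, had differences of -0.15 and -0.05 and did not pass.

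The desmosomal cadherins all rose. The desmoglein gene dsg2l was at 4.07, 4.58 and 4.05 at 2 hpf and at 7.12, 7.34 and 6.76 at 6 hpf, a rise of 2.84 (standard error 0.20, adjusted p = 6.70e-08). The desmocollin gene dsc2l began higher, at 6.14, 5.99 and 5.31, and reached 7.14, 7.50 and 6.99, a rise of 1.39. The desmoglein gene dsg2.1 rose by 1.34, from 5.04 to 6.38. In all 3 genes every pool at 6 hpf was above every pool at 2 hpf.

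All 3 plakins rose. The envoplakin gene evpla had 4.18, 4.15 and 4.20 at 2 hpf and 9.81, 9.72 and 9.31 at 6 hpf, a rise of 5.44 (standard error 0.18, adjusted p = 3.17e-11). Envoplakin in mammals works with periplakin in the envelope of surface keratinocytes. The periplakin gene ppl differed from evpla in that it was already well above the array medians at 2 hpf, with 7.61, 7.94 and 7.39, and reached 9.37, 9.59 and 9.08. Its rise was 1.70 (standard error 0.18, adjusted p = 3.59e-06). The desmoplakin gene dspa rose by 2.96, from 4.50 ± 0.07 to 7.46 ± 0.46 (SD, n = 3).

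Of the 8 armadillo genes, 3 rose and 5 did not pass. Plakoglobin serves both desmosomes and adherens junctions, and its gene jupa was well above the array medians at 2 hpf with a wide spread: 7.62, 6.77 and 8.14 in the DMSO pools and 7.56, 6.65 and 8.69 in the TDCIPP pools. In both treatments pool 2 was the lowest and pool 3 the highest, and the main fit did not pair pools by number. At 6 hpf the DMSO pools were close together at 10.34, 10.05 and 10.08. The rise of jupa was 2.65 (standard error 0.41, adjusted p = 0.00014). The second plakoglobin gene jupb stayed near its 2 hpf level of 5.75, with a difference of 0.03. Plakophilins bind the cadherin tails beside plakoglobin, and of their genes pkp3a rose by 2.30 and pkp2 by 0.56. The pkp1a signal was 6.98, 8.37 and 7.57 at 2 hpf and 7.75, 7.23 and 7.48 at 6 hpf, which overlapped. The pkp4 signal was 7.83, 7.71 and 7.72 and then 7.65, 7.59 and 7.69, a difference of -0.11 that did not pass. For pkp1b and pkp3b the difference was 0.28 in each and did not pass.

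At 2 hpf, the 4 genes with the highest signal in DMSO embryos were thus pkp4, ppl, pkp1a and jupa, none of them a keratin, while at 6 hpf they were krt4, krt18a.1, krt8 and jupa. Signals of different probe sets are not on a common scale of RNA amount, so this order describes the arrays only. In DMSO embryos, 20 of the 36 genes had a mean above every array median at 2 hpf and 26 had one at 6 hpf. The share over all genes was not counted, and the array medians include many clusters without a symbol. Genes with 1 symbol had medians of 5.63 to 5.67 in the DMSO pools at 2 hpf and 5.52 to 5.54 at 6 hpf. The 36 genes had medians of 4.50 to 4.54 and 6.19 to 6.59 in these pools.

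**Figure D2:**
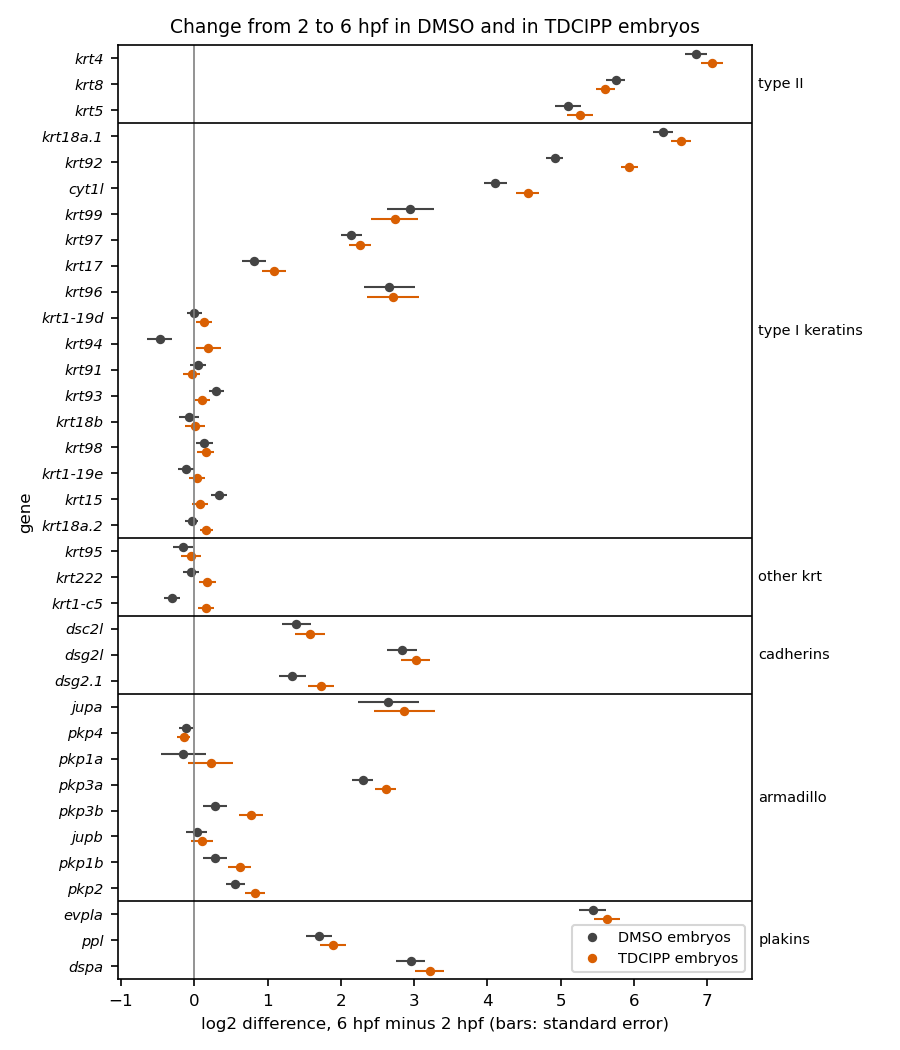
Log2 difference between 6 and 2 hpf (x axis) for each of the 36 genes (y axis, by role), in DMSO embryos (grey) and TDCIPP embryos (orange), with the standard error as a bar. The points of both treatments lay side by side for most genes, with the widest gap for krt92 (4.92 in DMSO and 5.94 in TDCIPP).

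In TDCIPP embryos the same comparison gave 21 genes that rose, none that fell and 15 that did not pass, with a median of 0.96. Over all genes with 1 symbol, 49.5% passed, 17% as rising and 32.5% as falling. Of the 21 genes that rose in DMSO embryos, 19 rose in TDCIPP embryos too. The exceptions were krt15 and krt93, with differences of 0.08 and 0.11 under TDCIPP. The plakophilin genes pkp1b (0.62, adjusted p = 0.00727) and pkp3b (0.77, adjusted p = 0.00184) passed in TDCIPP embryos but not in DMSO embryos. The difference between the treatments did not pass for any of these 4 genes (adjusted p = 1.00 for each). The 5 genes with the largest log2 difference in DMSO embryos changed by 7.07 (krt4), 6.64 (krt18a.1), 5.61 (krt8), 5.63 (evpla) and 5.27 (krt5) in TDCIPP embryos.

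Many of the keratin genes lie next to each other in the genome, and raised and unmoved genes were neighbours. By the gene order of the current RefSeq assembly, krt5, krt8, krt18a.1 and krt18a.2 follow one another. Of these, the former 3 rose by at least 5.10 in DMSO embryos, and krt18a.2, with a difference of -0.03, did not pass. In the run krt1-19d, krt1-19e, krt92 and cyt1l, the latter pair rose by 4.92 and 4.11, while the former pair had differences of -0.0016 and -0.11. The run krt93, krt94, krt98, krt15 and krt99 held 1 large rise, that of krt99 (2.95), at its end, and jupa (2.65) lay 2 protein-coding genes further on. The run krt222, krt97 and krt96 began with an unmoved gene (-0.05) and went on with rises of 2.14 and 2.66. The gene krt4 was separated by 1 gene from krt18b, whose difference was -0.07. The desmosomal cadherin genes dsc2l and dsg2.1 were neighbours and rose by similar amounts. Of the unmoved genes, krt18a.2, krt1-19e, krt98, krt18b and krt222 had DMSO means below every array median at both times. They are not shown to be above background, so a change in them may have gone unmeasured. Keratin genes of a run are alike in sequence, and how far their probes share targets was not tested.

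**Figure D3:**
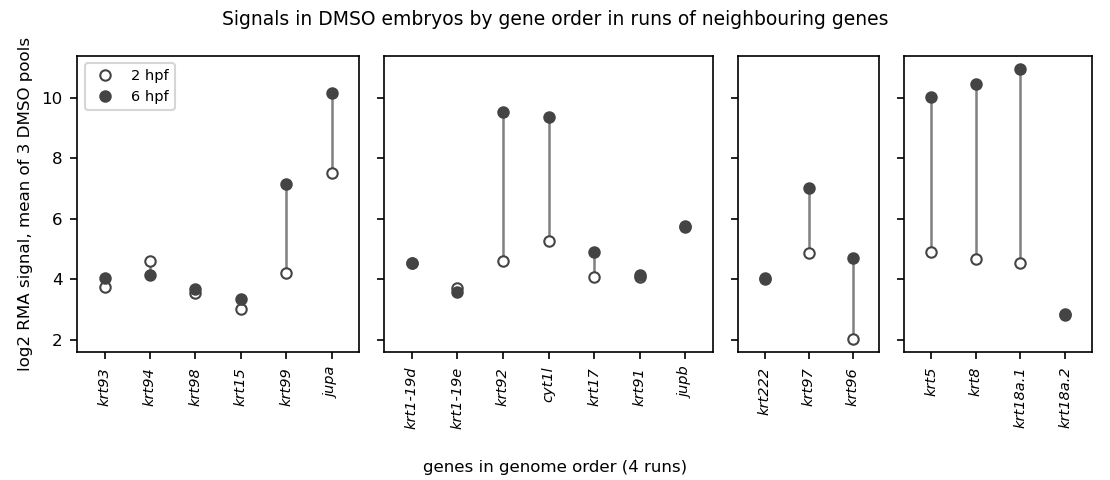
Mean log2 signal (y axis) of 3 DMSO pools at 2 hpf (open circles) and 6 hpf (filled circles) for genes in genome order (x axis) in 4 runs of neighbouring genes, with a line joining the times. In the run on the right, krt5, krt8 and krt18a.1 rose by 5.10, 5.75 and 6.40, and krt18a.2 next to them stayed at the bottom.

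At 2 hpf, TDCIPP left no keratin or desmosome gene past the test. None of the 36 genes was called, and neither was any of the 61240 clusters (0% called). The mean signal was higher under TDCIPP for 15 genes and lower for 21, with a median log2 difference of -0.04, where 52.7% of all genes with 1 symbol were higher. Without DMSO pool 2, the count turned to 21 higher and 15 lower with a median of 0.02. An unadjusted p under 0.05 was found for 3 genes, against 2.05% of all genes with 1 symbol. These were krt92, cyt1l and krt1-19d. They were also the 3 genes in which all TDCIPP pools were below all DMSO pools, which held for 3.14% of genes.

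The gene nearest to the threshold was krt92, with 4.57, 4.52 and 4.76 in DMSO pools and 3.71, 3.80 and 3.79 in TDCIPP pools at 2 hpf. The groups were clearly apart, just above the array medians with DMSO and below them with TDCIPP. The log2 difference was -0.85 (standard error 0.10, 95% confidence interval -1.07 to -0.63), but its adjusted p was 0.461. The 2 arrays of TDCIPP pool 3 read 4.29 and 3.30. At the same time cyt1l had 5.24, 5.23 and 5.29 with DMSO and 4.85, 5.07 and 5.01 with TDCIPP, a difference of -0.28 (standard error 0.09, adjusted p = 1.00). Its arrays disagreed: the difference was -0.70 on array 1 and 0.15 on array 2 of each pool. For krt1-19d the pools were 4.58, 4.53 and 4.54 with DMSO and 4.27, 4.34 and 4.41 with TDCIPP, a difference of -0.21 (standard error 0.09, adjusted p = 1.00). These 3 genes lie in a single run of neighbours, which also holds krt1-19e with a difference of 0.09. Each of the other 33 genes had an unadjusted p above 0.05, and the 2 hpf difference was 0.01 for krt4, -0.01 for krt18a.1, 0.30 for krt8, -0.14 for evpla and -0.05 for krt5.

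At 6 hpf, again none of the 36 genes was called, nor any cluster in the table (0% called). The smallest adjusted p was 0.877 among the 36 genes and 0.245 over all clusters. The mean signal was higher under TDCIPP for 29 of the 36 genes and lower for 7, with a median of 0.16 and a range from -0.17 (krt99) to 0.40 (pkp3b). Over all genes with 1 symbol, 54.9% were higher and the median was 0.02. The excess rested in part on a single DMSO pool. Pool 3 of the DMSO embryos was the lowest of the 6 pools in 21 of the 36 genes and in 15 of the 21 that rose with time. Over all genes with 1 symbol, it was the lowest in 3658 of 19298. Without it, 23 genes were higher and 13 lower, with a median of 0.06. Leaving out any other pool gave medians from 0.11 to 0.23. The part of this pool in the result was not tested further.

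An unadjusted p under 0.05 was found for 4 genes at 6 hpf, against 5.37% of all genes with 1 symbol. In krt1-c5 the DMSO pools were at 3.68, 3.57 and 3.60 and the TDCIPP pools at 3.85, 3.80 and 4.00, a difference of 0.27 (standard error 0.10, adjusted p = 0.877). In krt1-19e they were at 3.55, 3.65 and 3.59 and at 3.90, 3.80 and 3.81, a difference of 0.24 (standard error 0.09, adjusted p = 0.881). In both genes the pool means did not overlap, but all pools were below the array medians, and single arrays of the groups overlapped. The arrays of DMSO pool 1 read 3.36 and 4.00 for krt1-c5 and 3.21 and 3.88 for krt1-19e. Both gaps were wider than the difference between the treatments. The plakophilin gene pkp3b was brighter, with 6.19, 6.42 and 6.46 in DMSO pools and 6.61, 6.55 and 7.11 in TDCIPP pools, a difference of 0.40 (standard error 0.16, adjusted p = 0.888). Its pool means were apart, and TDCIPP pool 3 was well above the others. Single arrays overlapped, with 6.59 on array 2 of DMSO pool 2 and 6.46 on array 1 of TDCIPP pool 2. The plakoglobin gene jupa had 10.34, 10.05 and 10.08 with DMSO and 10.64, 10.22 and 10.64 with TDCIPP, which overlapped. This gave a difference of 0.34 (adjusted p = 0.900, standard error 0.14).

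All TDCIPP pools were above all DMSO pools at 6 hpf in 6 genes (krt4, krt222, krt1-19e, krt1-c5, pkp3a and pkp3b), where 7.26% of all genes with 1 symbol did so. They were below in 1 gene (krt93), where 4.41% did so. For krt4, the 6 hpf pools were 11.13, 11.12 and 10.96 with DMSO and 11.21, 11.28 and 11.40 with TDCIPP, a difference of 0.23. By role, all 3 type II keratins, all 3 cadherins, all 3 plakins, 7 of 8 armadillo genes and 11 of 16 type I keratins had a higher mean with TDCIPP, with medians of 0.16, 0.19, 0.16, 0.30 and 0.07. Of the keratins with no assigned type, 2 of 3 did, with a median of 0.24. DMSO pool 3 was the lowest of the 6 pools in all 3 type II keratins, all 3 plakins and 2 of the 3 cadherins. Without it, a comparison added after the data were seen, 2 of 3 type II keratins, all 3 cadherins, 2 of 3 plakins, 6 of 8 armadillo genes and 8 of 16 type I keratins were higher. The medians were then 0.11, 0.08, 0.01, 0.17 and 0.01, and krt5 and evpla were lower with TDCIPP.

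The intervals give the size of change that 3 pools against 3 could resolve. The 95% confidence interval of the TDCIPP effect at 6 hpf was -0.01 to 0.46 for krt4, -0.05 to 0.53 for krt18a.1, -0.10 to 0.41 for krt8, -0.31 to 0.41 for evpla and -0.25 to 0.48 for krt5. For each of these 5 genes, the interval reached no further down than -0.31, beside rises of 5.10 to 6.85 with time. The size of these rises is not settled, as said above. The widest intervals were those of krt96 (-0.90 to 1.03) and krt99 (-1.06 to 0.72). For jupa at 2 hpf the interval ran from -0.99 to 1.24.

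**Figure D4:**
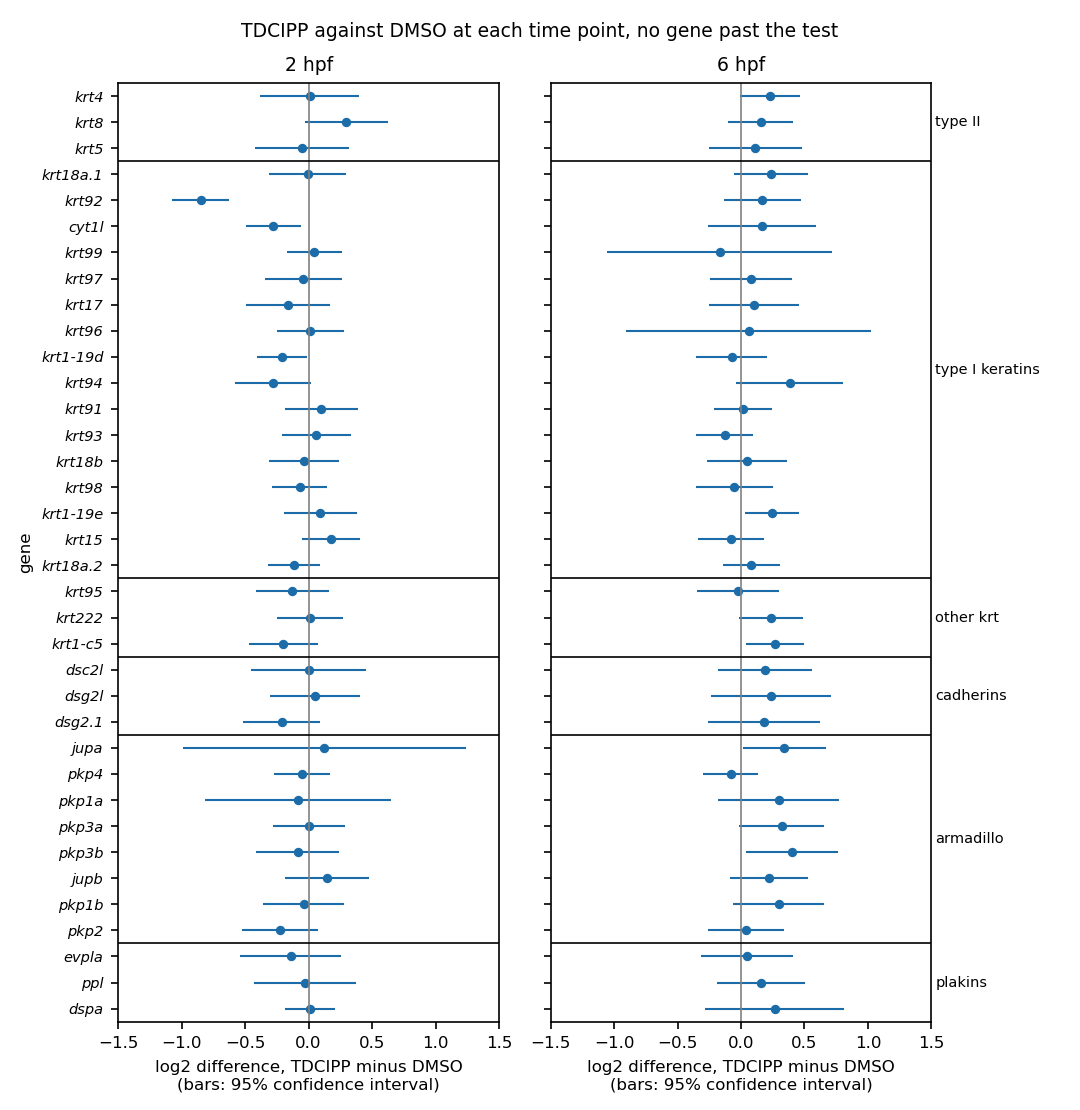
Log2 difference between TDCIPP and DMSO embryos (x axis) for each of the 36 genes (y axis, by role) at 2 hpf and at 6 hpf, with 95% confidence intervals as bars. At 2 hpf krt92 stands apart at -0.85, and at 6 hpf 29 of the 36 points lie to the right of 0, with none past the test.

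The TDCIPP effects at 2 and 6 hpf were also set against each other in a fit of all 12 pools. No gene passed the test of this difference (0% of clusters called). The unadjusted p was under 0.05 for krt92, krt1-c5 and krt94, against 3.66% of all genes with 1 symbol. For krt92, the effect was -0.85 at 2 hpf and 0.17 at 6 hpf, where the pools were at 9.50, 9.66 and 9.45 with DMSO and at 9.45, 9.88 and 9.79 with TDCIPP. The difference of the effects was 1.02 (standard error 0.17, adjusted p = 0.291). It passed when each array counted as a sample (adjusted p = 0.0465), but not with a random block for pools (adjusted p = 0.127). For krt1-c5, the difference was 0.47 (standard error 0.15, adjusted p = 1.00), from -0.20 at 2 hpf to 0.27 at 6 hpf. For krt94, it was 0.67 (standard error 0.24, adjusted p = 1.00), from -0.28 to 0.38, with TDCIPP pools at 4.21, 4.55 and 4.25 at 2 hpf and at 4.76, 4.56 and 4.26 at 6 hpf. Both krt1-c5 and krt94 are also the genes whose small fall in DMSO embryos was described above. That fall, from the same DMSO pools, is part of the difference of the effects, so the 2 results are not separate.

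**Figure D5:**
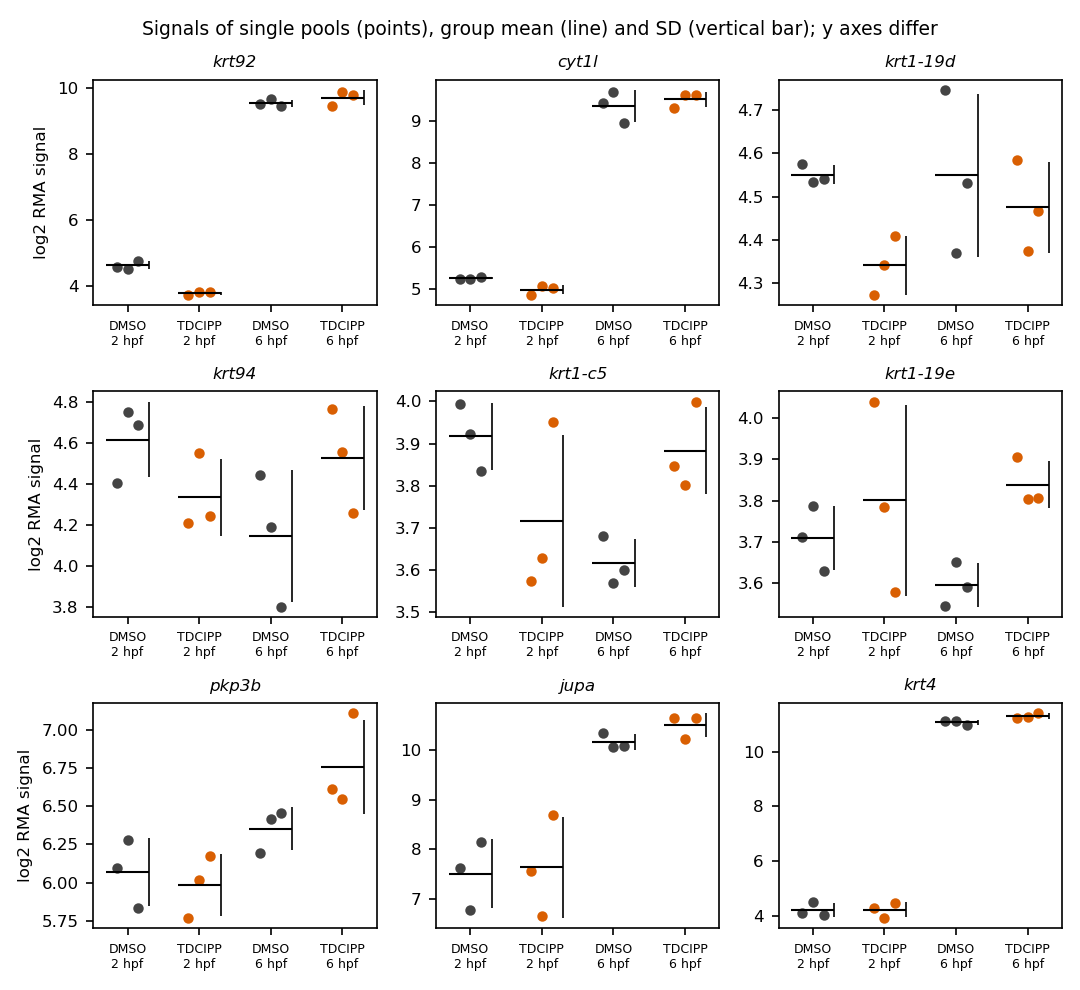
Log2 signal (y axis, own range per panel) of 9 genes in single pools (points) of the 4 groups (x axis), with the group mean (line) and SD (vertical bar, n = 3). The krt92 pools at 2 hpf were at 4.52 to 4.76 with DMSO and at 3.71 to 3.80 with TDCIPP, a gap that is small beside the rise to 6 hpf.

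Other genes of the surface layer were measured in the same pools. Of 25 listed enveloping layer genes that are neither keratin nor desmosome genes, 22 were measured, and 10 of them rose and 3 fell from 2 to 6 hpf in DMSO embryos, where 16.1% of all genes with 1 symbol rose and 33% fell. The same shares apply to the time counts of the lists that follow. The claudin gene cldne rose by 4.62, from 4.45 to 9.07. At 6 hpf, 18 of the 22 had a higher mean with TDCIPP, with a median of 0.14 and none called. Without DMSO pool 3, 15 did, with a median of 0.12, and without TDCIPP pool 3, 19 did, with a median of 0.10. The 3 with the smallest p were cldnb (a claudin gene, 0.73), capn9 (a calpain protease gene, 0.62) and cldne (0.32). DMSO pool 3 was the lowest of the 6 pools in 9 of the 22, and TDCIPP pool 3 was the highest in 10. Over the 19298 genes with 1 symbol, these pools were so in 3658 and 3569. The same bases apply to the pool counts of the lists that follow. Of 19 measured surface epithelium transcription factors, 16 rose with time and 1 fell (tp63, -0.69). The largest rise was that of grhl3 (6.25), whose product is a grainyhead factor of surface epithelia. At 6 hpf 16 of the 19 had a higher mean with TDCIPP and 10 had an unadjusted p under 0.05, against 5.37% of all genes with 1 symbol, again with none called. Of these 10, tp63 (-0.53) and tfap2c were lower with TDCIPP. TDCIPP pool 3 was the highest of the 6 pools in 12 of the 19. The median was 0.28. It was 0.14 without that pool, with 15 of the 19 higher, and 0.18 without DMSO pool 3, with 13 higher. Those with the smallest p were tfap2c (an AP-2 factor, -1.61), foxi1 (a forkhead factor, 1.33) and ovol1b (a zinc finger factor, 1.12).

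Among 18 measured adherens and tight junction genes, 8 rose and 3 fell with time, and 15 had a higher mean with TDCIPP at 6 hpf (median 0.14, none called). This list shares genes with the enveloping layer list, cldnb and cldne among them, so the counts of the 2 lists are not independent. The 3 with the smallest p were cldnb, marveld2b (0.39) and f11r.1 (0.25). DMSO pool 3 was the lowest of the 6 pools in 8 of the 18, and TDCIPP pool 3 was the highest in 9. Of 16 other intermediate filament and linker genes, 6 rose and 2 fell. At 6 hpf, 11 of the 16 were higher (median 0.07, none called), with the smallest p for perp, a desmosome-associated membrane protein gene (0.52), the lamin gene lmna (0.38) and desmb (0.16). Of 13 maternal genes, 9 had a higher mean with TDCIPP at 6 hpf (median 0.08), with the smallest p for ybx1 (0.18), zar1 (0.16) and mos (0.25). Of 15 zygotic gastrula genes 8 did (median 0.06), with chrd (0.65), vent (-0.80) and foxd3 (0.59) at the front. Of 7 yolk syncytial layer genes 3 did (median -0.02), with slc40a1 (-0.22), mxtx2 (0.20) and mxtx1 (0.08). None of these was called. The part of stage or surface layer genes in the values of the keratin and desmosome genes was not tested.

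For 5 genes (evpla, jupa, krt91, krt98 and ppl) a second transcript cluster was on the array. The second clusters of evpla, jupa and ppl rose in DMSO embryos by 5.28, 2.08 and 1.57, near the values above. That of krt98 had a difference of 0.07 and did not pass. The second cluster of krt91 rose by 0.57 (adjusted p = 0.0468), whereas the first differed by 0.05 (adjusted p = 0.787), so this gene's call depends on the cluster.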

How the data were processed

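Total RNA of 12 pools was hybridized to 24 Zebrafish Gene 1.0 ST arrays. Per transcript cluster, the deposited table gives a log2 signal, which the authors made in Expression Console with RMA (background correction, quantile normalization, probe summary). The version of this software is not given in the sources used here. The labels name the build GRCz10, while the study states an earlier genome build for the design of the arrays. No count or depth exists for arrays, and the number of arrays limits the precision. Rows without a gene (13972) whose identifier lay before the range of the study's data table were left out.

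The 2 arrays of a pool were averaged. The pools came from separate beakers. Comparisons within a time point used 6 pools and the others all 12, with the two-sided moderated test of limma 3.58.1 (R 4.3.3), Benjamini-Hochberg adjustment and the study's threshold of 0.1. The fits were tested on simulated data. Symbols came from the array annotation (20856 clusters with 1 symbol, 805 with several, 39579 with none), and gene order from RefSeq.

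The genes, lists and tests were chosen with earlier results of these data known. Given with their full test were the 3 genes with the smallest p in each TDCIPP comparison and the 5 that rose or fell most. From each other list, the 3 with the smallest p at 6 hpf are named. Others were chosen after their values were seen. Alternatives were array choice, blocks, scaling, filters, leaving out each pool and the ANOVA of the study's methods. A promoter motif search was not run. Figures were drawn with matplotlib.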

Additional observations from a re-analysis of the deposited data

How the results depend on the processing

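Signals of many of these genes lie near the array medians, where small differences are least certain, and 3 pools a group limit every comparison. Among results for the genes given with their full test, 305 alternatives kept direction and call, 10 lost the call (krt94 or krt1-c5 between times) and 1 gained it (krt92). For cyt1l at 2 hpf the sign turned with array 2 of each pool alone (0.15). Centring each array on its median moved the median of all clusters between times from 0.01 to -0.11 in DMSO embryos and from 0.03 to -0.11 in TDCIPP embryos. It changed the calls over all clusters from 12264 higher and 12178 lower to 8828 and 17815, and those among the 36 genes from 21 and 2 to 19 and 3 (krt15 and krt93 lost, pkp4 lower). The median change of the 36 genes in DMSO embryos became 0.56 with that centring and 2.74 over the 20 genes with a mean signal of at least 5. In TDCIPP embryos it became 0.82 and 2.80, and 1.15 or 0.80 with array 1 or 2 alone. With only clusters of 1 symbol tested, and so fewer of them, 10485 (DMSO) and 10595 (TDCIPP) were called between times. At 6 hpf, clusters called for TDCIPP against DMSO went from 0 to 82 with each array as a sample, 52 with the pool as a random block, 1 with array 1 alone, 14 with the trend and robust options, 17 with a spread shared by all 12 pools, and 2 or 68 with the ANOVA on pool means or single arrays. None of them was a keratin or desmosome gene. Leaving out 1 pool gave 0 to 2 clusters, with 2 without DMSO pool 3. For the difference of the effects, 18 clusters were called with each array as a sample, 1 of them among the 36 genes (krt92), 8 with the random block, 2 with the trend and robust options, and 0 to 3 when leaving out 1 pool (2 without DMSO pool 3, 3 without TDCIPP pool 2, both of 6 hpf). The causes were not tested.

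Over all clusters, same-numbered pools of the 2 treatments deviated together weakly. The correlations were 0.25, 0.05 and 0.12 at 2 hpf and 0.18, 0.12 and 0.09 at 6 hpf. All of these were positive, while same-numbered pools of the 2 times within a treatment had -0.03 to 0.10. Single genes can differ from this. Among the genes with the highest DMSO signal at 2 hpf, jupa, pkp1a and ppl had the same pool order in both treatments. The order differed for pkp4. The labels give only a replicate number, and whether same-numbered pools share an origin was not tested. With the replicate number as a block, the 36 genes kept all 23 calls between times in DMSO embryos and all 21 in TDCIPP embryos, and 0 were called for TDCIPP at 2 or 6 hpf or for the difference of the effects.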
